A study of Drosophila melanogaster with 6 samples.

Results

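Mitochondrial cytochrome P450s were followed in METH-treated flies through the Cyp12 genes of Drosophila melanogaster and the related genes Cyp301a1 and Cyp49a1. The members were taken by gene name, as every probe set that the platform annotation pairs with Cyp12a4, Cyp12a5, Cyp12b2, Cyp12c1, Cyp12d1-d, Cyp12d1-p, Cyp12e1, Cyp301a1 or Cyp49a1. These 9 genes were measured by 10 of the 18769 probe sets tested, a probe set being the group of array features that together measure a transcript. A single probe set is paired with both Cyp12d1-d and Cyp12d1-p, and its signal cannot be divided between them. Cyp12e1 has 2 probe sets, and Cyp12d1-d has a further one of its own. Expression was measured on 6 arrays, each with total RNA from whole bodies of 20 virgin males of the w1118 strain, reared to 5 days after eclosion. Males of 3 samples had fed for 24 h on the blue standard diet with 0.6% (w/v) METH (methamphetamine), and males of the 3 control samples on the same diet with 0% METH. The comparison asks which transcripts differ after a day of feeding on METH, in flies that share strain, sex, age and food.

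Most cytochrome P450s sit in the endoplasmic reticulum, where NADPH-cytochrome P450 reductase supplies their electrons. A smaller branch is imported into mitochondria and draws electrons from a ferredoxin, which is in turn reduced by ferredoxin reductase. In insects this mitochondrial branch holds enzymes of ecdysone synthesis, such as those encoded by dib, sad and shd, and also the Cyp12 family, several of whose members have been tied to the handling of insecticides and other foreign compounds. Cyp12d1 is known in flies for its induction by caffeine and phenobarbital and for its link with resistance to DDT, and Cyp12a4 for resistance to lufenuron. Cyp301a1 differs from these in that it is needed for the formation of the adult cuticle.

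The authors' signals are linear intensities. For the comparison they were set on the log2 scale and expressed relative to the actin probe set AFFX-Dros-ACTIN_M_r of the same array, the reference named in the study's methods, so that levels are given as a percentage of this reference. The reference itself had a signal of 1040 ± 156 on the control arrays and 800 ± 88.5 on the METH arrays (SD, n = 3 each), and against it the median probe set was 0.24 higher on the log2 scale in METH-treated flies. This shift was -0.13 with the signals as deposited and 0.02 to 0.05 with other scalings, so that differences are also given relative to the median probe set. Median signals were 60.0 to 69.1 on control arrays and 50.6 to 65.0 on METH arrays, and arrays of a diet had rank correlations of 0.968 to 0.975, beside 0.966 to 0.972 for arrays of different diets. Of the tissue markers checked, those of eye, flight muscle, testis, accessory gland, midgut, Malpighian tubule and fat body were all present, and the summed signal of the 3 yolk protein genes of females was 91.1 to 139 over the 6 arrays. As deposited, the summed signal of 4 midgut markers was 8180 to 9330 on control arrays and 6430 to 7100 on METH arrays. After scaling to actin, 3 of the 4 were lower by limma's adjusted p. These were Jon25Bi, Jon25Bii and mag, with log2 fold changes of -2.98, -3.25 and -1.22. Mal-A1, which makes up most of the sum, had 0.42 and did not pass. That of 3 accessory gland markers was 7860 to 10000 and 4330 to 5370, with 1 of 3 lower. The deposited sums of flight muscle (11600 to 15300 and 8300 to 11200) and of the fat body (7850 to 9170 and 6100 to 7300) were lower. No marker of these tissues passed the threshold, and after scaling to actin they went both ways. The log2 fold changes of Act88F, TpnC4 and fln in flight muscle were -0.27, 0.19 and -0.04. Those of apolpp, Lsp2 and FASN1 in the fat body were 0.18, -0.51 and -0.08. The summed signals of 3 Malpighian tubule markers (3380 to 3710 and 3090 to 3390) overlapped between diets. So did those of eye (8760 to 9180 and 8820 to 8880) and testis (9200 to 10200 and 9370 to 10900), and no marker of these tissues passed the threshold. The part of the lower deposited sums of midgut, accessory gland, flight muscle and fat body in the results below was not tested. For a marker that is lower in RNA from whole flies, fewer cells of a type and less RNA of that gene per cell cannot be told apart.

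At an adjusted p under 0.05 from limma, 3 of the 10 probe sets were higher in METH-treated flies, where 0.842% of all probe sets tested were higher and 1.26% differed in either direction. They correspond to Cyp12a5 and to the Cyp12d1-d and Cyp12d1-p pair. No member was lower by limma's adjusted p, where 0.416% of all probe sets were, and none at an unadjusted p under 0.05, where 2.12% were, or by the methods' t-test, where 0.33% were with p of 0.008 and 0.256% with p of 0.005. Counted by gene, with the Cyp12d1 pair as 1, 2 of 8 were higher. The median log2 fold change over the 10 probe sets was 0.32, beside the 0.24 of all probe sets, and 5 of the 10 stood above that median. Differences among the members ran from -0.06 to 4.40 on the log2 scale.

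**Figure D1:**
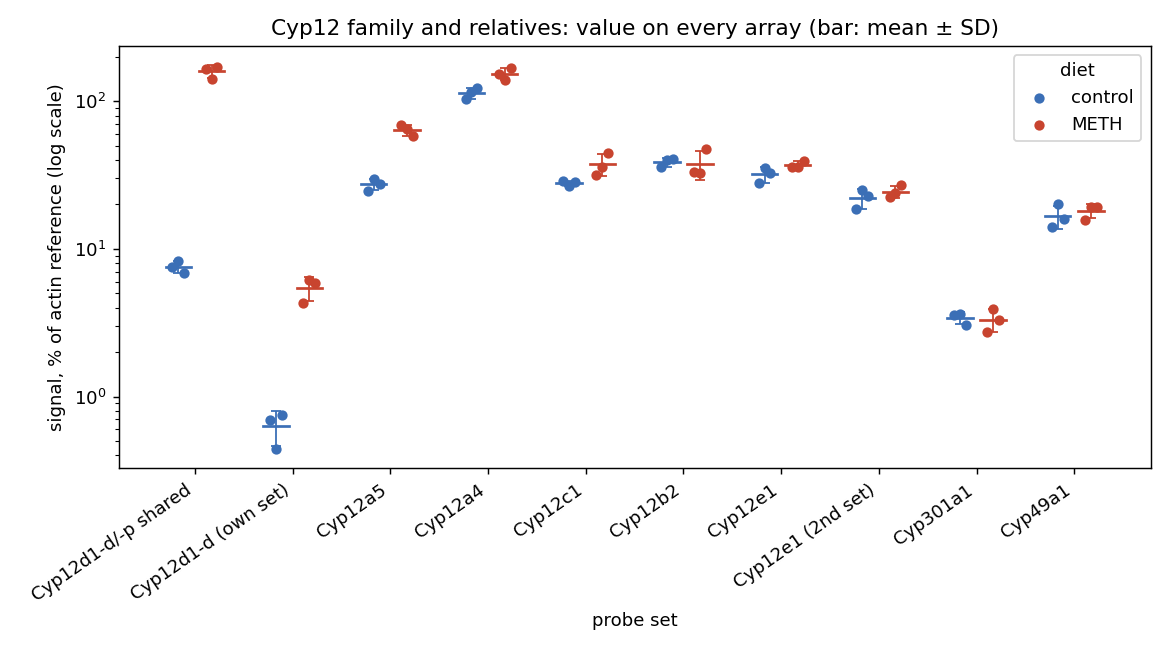
Signal of each of the 10 probe sets on each array, as a percentage of the actin reference on a log axis, for 3 control (blue) and 3 METH (red) arrays, with lines at the mean and bars of ± SD. The shared Cyp12d1 probe set went from 7.59 to 160% of the reference, and both Cyp12d1 probe sets and Cyp12a5 stand apart between diets. Cyp12a4, Cyp12c1 and the brighter Cyp12e1 probe set also do not overlap, by smaller margins. Cyp12b2, Cyp301a1, Cyp49a1 and the other Cyp12e1 probe set overlap.

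Cyp12d1-d and Cyp12d1-p are neighbouring, nearly identical copies of a gene on arm 2R. The shared probe set stood at 7.58, 8.30 and 6.89% of the actin reference on the control arrays and at 166, 142 and 172% on the METH arrays. Every METH array thus lay far above every control array, and within each diet the values stayed close together, with coefficients of variation of 9.32% on control and 9.84% on METH. As deposited, the signals were 92.3, 76.6 and 67.8 on control and 1380, 1240 and 1210 on METH. The transcript rose 21.1-fold (log2 fold change 4.40, standard error 0.16, limma adjusted p = 1.21e-08), or 4.16 above the median probe set on the log2 scale. Of the 18769 probe sets this one had the smallest p and the second largest log2 fold change in limma's comparison, and none of 78 P450 genes outside the members had a larger one. It passed the threshold in each of the 19 alternative settings, with log2 fold changes of 4.02 to 4.48.

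The probe set paired with Cyp12d1-d alone stood at 0.693, 0.439 and 0.754% of the actin reference on control and at 4.31, 6.15 and 5.86% on METH. The diets again did not overlap, and the lowest METH value was several times the highest control value. The difference was 8.78-fold (log2 fold change 3.13, standard error 0.42, limma adjusted p = 9.58e-04), or 2.89 above the median probe set. The deposited control signals of 8.44, 4.05 and 7.42 lie below the 40th percentile of mean signal over all probe sets, which is 24.8, and the METH signals of 35.8, 53.4 and 41 lie above it. No detection calls were used, so the control level of this probe set was not shown to stand above background and the 8.78-fold is not a firm size. With signals floored at the 20th percentile of each array the log2 fold change was 3.01. This does not settle the size, because such a floor can itself lie within background. Because the copies are so alike, the platform's pairing of this probe set with 1 copy does not show which copy carried the transcript.

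Cyp12a5 and Cyp12a4 lie side by side on arm 3R. Cyp12a5 stood at 24.8, 29.6 and 27.7% of the actin reference on control and at 68.9, 65.1 and 58.1% on METH. No METH value came near the control range, and the deposited signals, 302, 273 and 272 against 573, 566 and 407, did not overlap either. Cyp12a5 rose 2.34-fold (log2 fold change 1.23, standard error 0.16, limma adjusted p = 7.46e-04), or 0.99 above the median probe set. It passed under each of the 5 scalings and without any single array, but not when limma was run without letting the spread follow the signal level (adjusted p = 0.0972).

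Cyp12a4, the member known for lufenuron resistance, gave 104, 115 and 123% of the actin reference on control and 153, 140 and 169% on METH. Here too the diets did not overlap after scaling, but the deposited signals of 1260, 1060 and 1210 on control and 1270, 1220 and 1180 on METH did. The log2 fold change of Cyp12a4 was 0.43 (standard error 0.16, 95% interval 0.08 to 0.78, limma adjusted p = 0.373), which is 0.19 above the median probe set and did not pass the threshold. It was 0.06 with the signals as deposited.

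The log2 ratio of Cyp12a5 to Cyp12a4 within an array was -2.06, -1.96 and -2.16 on control and -1.15, -1.11 and -1.54 on METH. Taken within an array, such a ratio needs no scaling between arrays. Each METH ratio lay above each control ratio, by 0.80 in the mean with a standard error of 0.15 (exact permutation test, two-sided p = 0.1, which is the smallest that 3 arrays against 3 can give). The ratio of the shared Cyp12d1 probe set to Cyp12a5 differed more, by 3.17 with a standard error of 0.16, from a mean of -1.85 on control to 1.32 on METH (exact permutation test, two-sided p = 0.1). Adjusted over these 2 ratios, both p values stayed at 0.1. The ratios were not planned, and a further one, between the Cyp12d1 probe sets, was left out after it was seen. They restate differences given above and serve as a description.

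**Figure D2:**
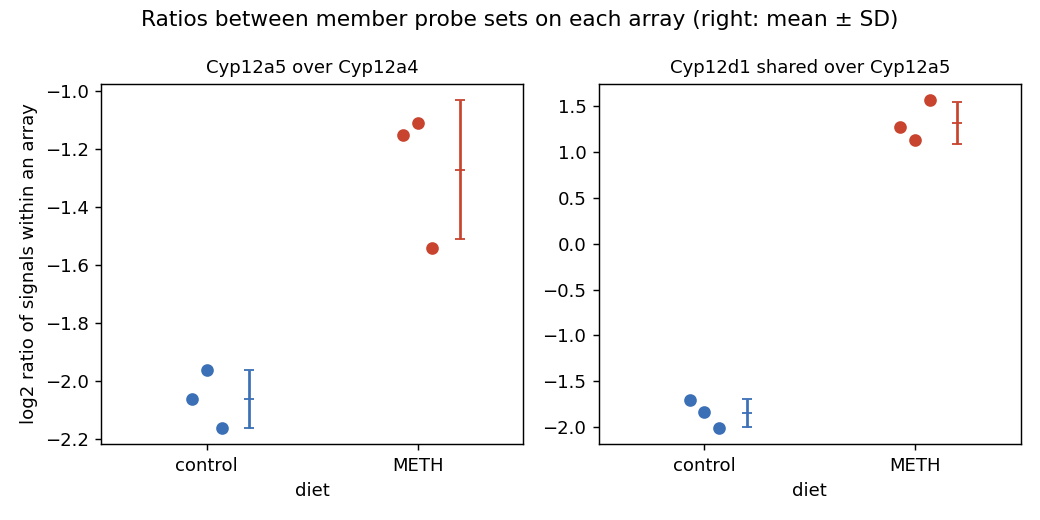
Log2 ratio of 2 probe sets' signals within an array, for 3 control (blue) and 3 METH (red) arrays, with the mean ± SD at the right of each group and a separate vertical axis in each panel. From left to right the mean ratio differed between diets by 0.80 and 3.17, and the diets do not overlap in either panel.

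Cyp12c1, on arm 3L, stood at 28.8, 26.7 and 28.3% of the actin reference on control and at 31.9, 36.1 and 44.5% on METH. The METH values were higher on all arrays and more spread, with a coefficient of variation of 17.1% against 4% on control. The log2 fold change was 0.41 (standard error 0.17, 95% interval 0.05 to 0.78, limma adjusted p = 0.416), which is 0.17 above the median probe set. Cyp12c1 did not pass the threshold, and with the signals as deposited its difference was 0.04.

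Cyp12e1, on arm 3R, was measured by 2 probe sets. The one with the higher mean read 28, 35.6 and 32.5% of the actin reference on control and 35.9, 36.1 and 39.7% on METH. The highest control value lay just under the lowest METH value. Its log2 fold change was 0.22 (standard error 0.16, 95% interval -0.13 to 0.57, limma adjusted p = 0.529), and that of the other was 0.15 (standard error 0.18, adjusted p = 0.704) with overlapping diets. Relative to the median probe set these are -0.02 and -0.10, and with the signals as deposited both were below 0, at -0.15 and -0.23.

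Cyp12b2, on arm 2R, stood at 35.8, 39.9 and 40.5% of the actin reference on control and at 33.0, 32.9 and 47.2% on METH. METH replicate 3 was above all control arrays while the other METH arrays were below them. The log2 fold change was -0.06 (standard error 0.18, 95% interval -0.44 to 0.33, limma adjusted p = 0.889), or -0.30 relative to the median probe set. The deposited signals of Cyp12b2 were 436, 368 and 399 on control and 274, 285 and 331 on METH, without overlap, and their log2 fold change of -0.43 did not pass (adjusted p = 0.177).

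Cyp301a1, the cuticle gene, stood at 3.56, 3.60 and 3.04% of the actin reference on control and at 2.73, 3.92 and 3.30% on METH. The diets overlapped, and the log2 fold change was -0.05 (standard error 0.31, 95% interval -0.72 to 0.63, limma adjusted p = 0.951). Cyp49a1 read 14, 20 and 15.9% on control and 15.8, 19.3 and 19.2% on METH, also with overlap. Its log2 fold change was 0.13 (standard error 0.19, 95% interval -0.28 to 0.55, limma adjusted p = 0.752). For both genes the interval still holds changes of 0.5 on the log2 scale in at least one direction, so that a modest difference was not detectable with 3 arrays per diet.

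**Figure D3:**
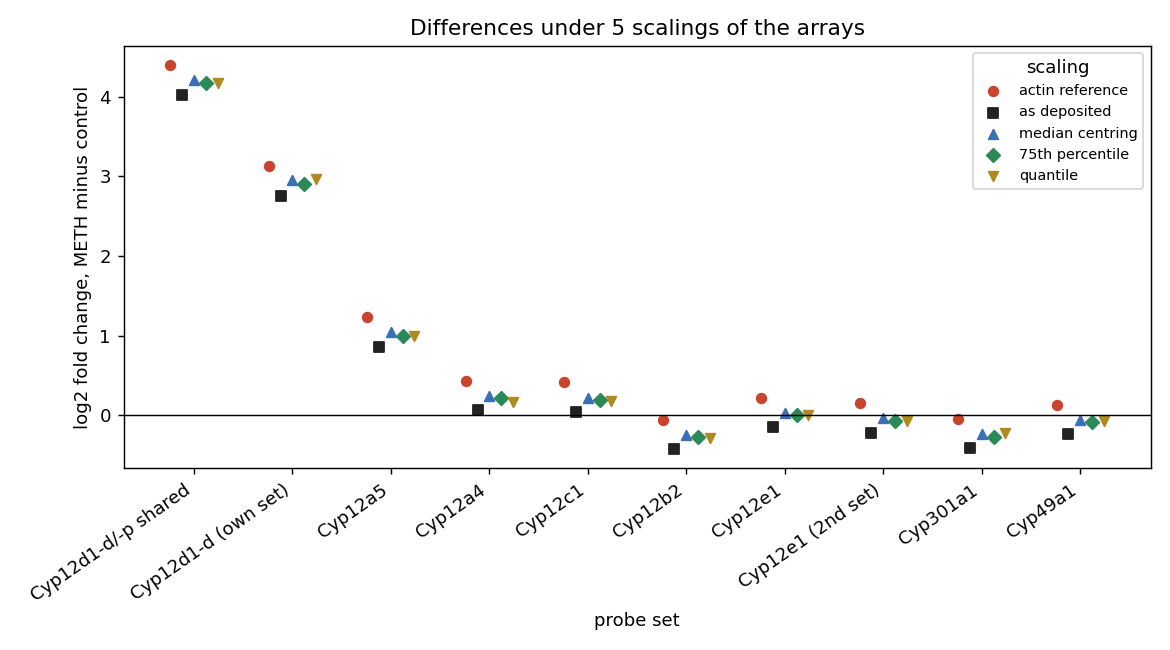
Log2 fold change, METH minus control, of each of the 10 probe sets under 5 scalings of the arrays. The shared Cyp12d1 probe set lies between 4.02 and 4.40 and Cyp12a5 between 0.85 and 1.23, all above 0, while both Cyp12e1 probe sets and Cyp49a1 fall on either side of 0 depending on the scaling.

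Across the 10 probe sets, 6 had all METH values above all control values after scaling to actin, where 15.7% of all probe sets did, and none had all of them below, where 2.58% did. At an unadjusted p under 0.05, 5 were higher, where 9.38% of all probe sets were higher. The methods' t-test was read at a p of 0.008 and a change of 1.5-fold, the limits the study used to choose genes for its pathway analysis, and at the p of 0.005 that its methods give. The members called were at both limits the same 3 probe sets as by limma, where 1.25% and 0.922% of all probe sets were called higher.

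The mitochondrial branch has 3 further genes in flies, all of ecdysone synthesis, and none passed the threshold by limma, at an unadjusted p under 0.05 or by the methods' t-test. dib, which acts late in the route, differed by -0.72 on the log2 scale (standard error 0.96, limma adjusted p = 0.732), and sad, which acts just after it, had 0.85 (standard error 0.80, adjusted p = 0.622). Both were dim, with mean deposited signals of 8.62 and 3.53 for dib and 1.56 and 2.21 for sad on control and METH. shd encodes the enzyme of the last step, which makes the active hormone, and its brighter probe set differed by 0.18 on the log2 scale (standard error 0.29, adjusted p = 0.775). The other shd probe set had 1.25 (standard error 0.62, limma adjusted p = 0.444), with overlapping diets. It was dim, with mean deposited signals of 6.75 on control and 12.2 on METH.

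Mitochondrial P450s depend on ferredoxins for electrons. Fdx2, which encodes a mitochondrial ferredoxin, stood at 82.9, 79.7 and 88.6% of the actin reference on control and at 209, 175 and 226% on METH. All METH arrays were above all control arrays, and Fdx2 rose 2.42-fold (log2 fold change 1.27, standard error 0.16, limma adjusted p = 7.84e-04), or 1.03 above the median probe set. It passed under every scaling but not in limma without the trend (adjusted p = 0.0972). Fdx1, the other mitochondrial ferredoxin, went from 25.6, 23.1 and 26.3% to 37.0, 31.9 and 41.0%, without overlap after scaling. Its log2 fold change of 0.55, or 0.30 above the median probe set, did not pass (standard error 0.16, limma adjusted p = 0.212). The deposited signals of Fdx1, 312, 213 and 259 on control and 308, 277 and 287 on METH, overlapped. Their log2 fold change was 0.17. Whether Fdx2 or Fdx1 supplies electrons to the Cyp12 enzymes was not tested. The ferredoxin reductase gene dare and the microsomal reductase gene Cpr have no probe set of their own in the annotation used and were not analysed here.

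Heme is the cofactor of every P450, and its synthesis starts and ends in mitochondria. None of 7 heme synthesis genes passed limma's adjusted threshold or the methods' t-test, while at an unadjusted p under 0.05 limma had 5 higher and 0 lower. Their log2 fold changes ran from 0.26 to 0.53, or from 0.02 to 0.29 relative to the median probe set, with the smallest adjusted p for Alas (0.53, standard error 0.20, adjusted p = 0.39), which encodes 5-aminolevulinate synthase, the first enzyme of the route. With the signals as deposited 5 of the 7 were above 0 and the range was -0.12 to 0.16.

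**Figure D4:**
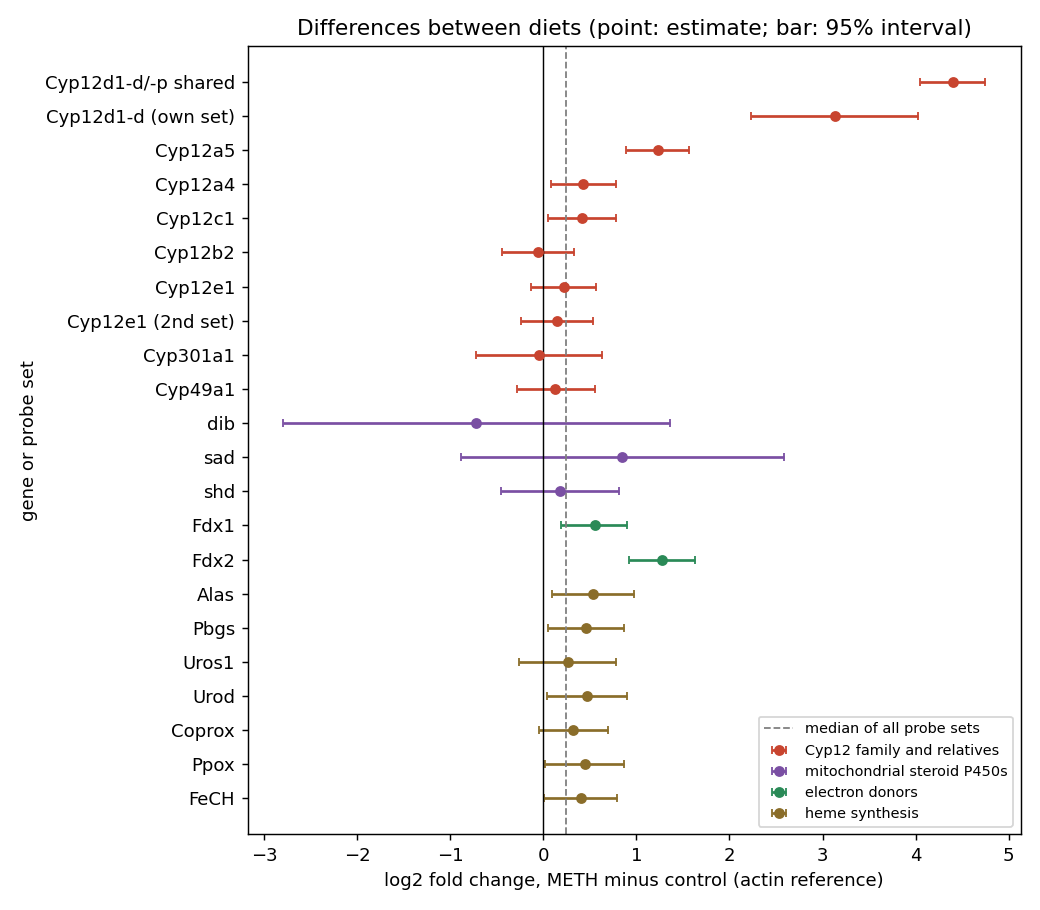
Log2 fold change, METH minus control, with its 95% interval from limma, for the 10 probe sets of the Cyp12 family and relatives (red), 3 mitochondrial P450s of ecdysone synthesis (purple), 2 ferredoxins (green) and 7 heme synthesis genes (brown), with a dashed line at the median of all probe sets, 0.24. Both Cyp12d1 probe sets, Cyp12a5 and Fdx2 lie clear of that line, and the intervals of dib and sad are the widest.

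Among the P450 genes outside the mitochondrial branch, 21 of 75 were higher and none lower by limma's adjusted p, with 29 and 1 when p was left unadjusted, and 21 higher and none lower by the methods' t-test with p of 0.008, or 18 and none with p of 0.005. That is 28% of these genes, beside 25.0% of the 8 members counted by gene. The median log2 fold change was 0.38 for these P450s and 0.32 for the members. Cyp12a5 was exceeded by 18 of the 78 P450 genes outside the members, Cyp12a4 by 33 and Cyp12b2 by 64.

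**Figure D5:**
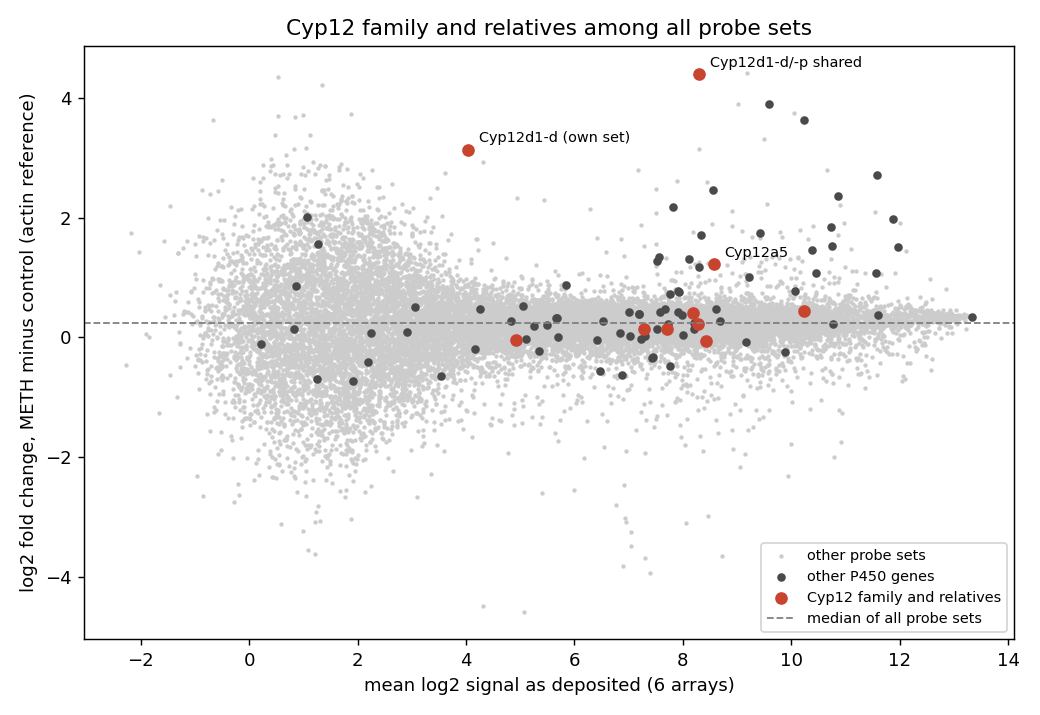
Log2 fold change, METH minus control, against the mean log2 signal as deposited over 6 arrays, for the members (red), 78 other P450 genes (dark grey) and all other probe sets (light grey), with the median of all probe sets at 0.24. The shared Cyp12d1 probe set lies near the upper edge at 4.40, and the Cyp12d1-d probe set, at 3.13, lies further left among dimmer ones.

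The genes next to the members on the chromosome were compared by position, 2 protein-coding genes on each side, a choice made after the members' values were seen. Of 28 such neighbours outside the members 24 were measured and none passed limma's adjusted threshold, where 1.26% of all probe sets did. At so small a share, none among 24 does not set the neighbours apart from other genes. Their log2 fold changes were -0.92 to 2.02. BBS4, next to Cyp12d1-d, differed by 0.81 on the log2 scale (standard error 0.39, limma adjusted p = 0.444), and Ppcs, next to Cyp12a4, had -0.20 (standard error 0.22, adjusted p = 0.667).

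Outside the P450s, the 5 genes whose values followed the shared Cyp12d1 probe set most closely over the 6 arrays were CG6908, Ugt302C1, Ugt35C1, CG3008 and St4, with Pearson correlations of log2 values of 0.9995, 0.99722, 0.99591, 0.99528 and 0.99265. The arrays fall into 2 diets and share the actin reference, so these correlations are given as a description of a shared pattern. Ugt302C1 and Ugt35C1 encode UDP-glucuronosyltransferases, which join sugars to foreign compounds, and St4 a sulfotransferase. CG6908 went from 24.0, 28.2 and 23.8% of the actin reference on control to 246, 238 and 266% on METH (log2 fold change 3.31, standard error 0.15, limma adjusted p = 4.78e-08). CG3008 and St4 did not pass the threshold, with log2 fold changes of 0.54 (adjusted p = 0.141) and 0.94 (adjusted p = 0.304).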

How the data were processed

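The authors labelled total RNA by the Affymetrix protocol, hybridized it to Drosophila Genome 2.0 arrays and quantified the images with GCOS 1.4. The deposited table gives an unlogged intensity for each of 18952 probe sets on each array. Whether the arrays were scaled to a common target is not given in the sources used here, and no detection calls were used. The 183 AFFX control probe sets were left out after scaling and no filter on dim probe sets was applied. Log2 signals minus that of AFFX-Dros-ACTIN_M_r were compared between diets with limma 3.58.1 in R 4.3.3 (lmFit and eBayes with a trend), with two-sided tests, Benjamini-Hochberg adjustment across the 18769 remaining probe sets and a threshold of 0.05. The study's methods used SAM for this step, which was not run here. The precision is limited by 3 arrays per diet.

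Members were matched by gene identifier. Of the probe sets tested, 13647 are paired with 1 gene, 402 with several and 4720 with none. For 13544 of those with 1 gene the identifier was found in the Release 6 RefSeq gene table. That table gave their current symbols and the neighbouring genes. For other genes the probe set with the highest mean was used. All members, dib, sad, shd, the electron donors, the heme synthesis gene of smallest adjusted p and the 5 most similar genes outside the P450s are named by rule, and the genes next to the members were added after their values were seen. The ratio between the Cyp12d1 probe sets was left out after it was seen, because the Cyp12d1-d signal is dim on control arrays. The members and lists were chosen with earlier results of these data known. Whether the replicate numbers pair the samples is not stated, and the main fit did not pair them. Correlations of deviations from the diet means were 0.022, 0.041 and 0.064 for equal numbers. For unlike numbers they were -0.078 to 0.039, and these values cannot settle the question. The fits were tested on simulated data. Alternatives were 4 other scalings, removal of probe sets under the 40th percentile of mean signal, flooring at the 20th percentile, no trend, the methods' t-test at p limits of 0.008 and 0.005, a replicate block, other thresholds, averaging a gene's probe sets and leaving out each array. Figures were made in matplotlib 3.10.9 under Python 3.11.15.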

Additional observations from a re-analysis of the deposited data

How the results depend on the processing

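The 2 member genes and 3 member probe sets that were higher stayed at 2 and 3 in every alternative except the following. Limma without the trend called 1 member gene and 2 member probe sets higher, none of the electron donors (0) and 7 other P450s. The methods' t-test after Benjamini-Hochberg adjustment called 1 member gene and 1 member probe set, the shared Cyp12d1 one, 0 electron donors and 0 other P450s, and 2 of all probe sets. Other P450s had 1 lower gene under each of the 4 other scalings. Leaving out each array in turn gave 2 to 2 member genes, 3 to 3 member probe sets, 1 to 1 electron donors and 18 to 23 other P450s higher, and 103 to 143 of all probe sets higher and 56 to 92 lower, with the 103 without control replicate 3, beside which the 3 member probe sets were still called. No member was lower in any setting run. Averaging a gene's probe sets left Cyp12a5 and the shared Cyp12d1 probe set as they were, so it was little check of those calls. Over all probe sets, 158 were higher and 78 lower, or 66.9% higher, and this share was 23.0% with the signals as deposited (114 and 381), 44.2% with median centring (130 and 164), 41.2% with the 75th percentile (147 and 210) and 37.9% after quantile normalization (161 and 264). Without the trend the counts were 17 and 7, and by the methods' t-test they were 234 and 62 with p of 0.008 and 173 and 48 with p of 0.005, a limit added after seeing the data.

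With the replicate number as a block, 2 electron donors, 2 heme synthesis genes and 2 lower P450s were called, and the counts over all probe sets became 1033 and 260. The replicate numbers have no stated meaning. Deviations of same-numbered arrays correlated at 0.022 to 0.064, and those of unlike numbers at -0.078 to 0.039. METH replicates 2 and 3 correlated best with the control of the same number (0.041 and 0.064), and METH replicate 1 with control replicate 2 (0.039). These values cannot settle whether the numbers mark pairs. The block changed no call of a member. The Cyp12d1-d probe set passed the filter on dim probe sets through its METH arrays. Members that did not pass have intervals wide enough to hold modest changes.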
